A study of Rattus norvegicus with 9 samples.

Results

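The 10 genes described here are the nuclear factor kappa-B (NF-kappa-B) subunits Rela, Nfkb1, Nfkb2 and Relb, the inhibitors Nfkbia, Nfkbie and Nfkbiz, and the regulators Tnfaip3, Ikbke and Birc3. They were taken by gene symbol from the 18629 genes of the deposited table, and each symbol had 1 line. All 10 were among the 13697 genes with enough reads to test. Primary cardiomyocytes came from the hearts of Sprague-Dawley rats aged 1 to 2 days and were cultured as a model of diabetes. After 14 h in 1% serum and 1 g/L glucose, they were kept for 48 h in 33 mM glucose plus 100 nM insulin. The cells received adenovirus for GFP (green fluorescent protein, the control), wild-type Yap1 (Yap1 WT) or a hairpin that silences Yap1 (Yap1 shRNA). Each group had 3 messenger RNA libraries. All 9 libraries are titled as treated with both, and thus share the high glucose, the insulin and an adenoviral infection. Neither an uninfected group nor a hairpin control was analysed here, and the viral titres are not given in the sources used here. Effects of the hairpin vector and of lower Yap1 cannot be told apart. Nor can those of added Yap1 and of any difference in titre between the Yap1 WT and GFP viruses.

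NF-kappa-B dimers drive transcription of inflammatory, survival and immune genes. In resting cells IkappaB proteins such as the product of Nfkbia hold the dimers in the cytoplasm, until an IkappaB kinase marks the inhibitor for degradation. In the canonical branch, RelA pairs with p50, the processed product of Nfkb1. In the noncanonical branch, RelB pairs with p52, the processed product of Nfkb2. Several of the genes that NF-kappa-B switches on encode its own subunits and inhibitors, which closes feedback loops. In the heart the pathway is known for its part in inflammation, hypertrophy and injury.

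Promoter sequence was examined because many of these genes are known to be regulated by the factor they encode or restrain. Of the 10, 7 had an entry among RefSeq promoter sequences of the rat build GRCr8, which run from 250 bases before to 50 bases after the annotated start: Rela, Nfkb1, Nfkb2, Nfkbia, Nfkbie, Nfkbiz and Tnfaip3. A match to the NF-kappa-B consensus, searched on both strands, was found in 6 of these 7, all but Rela, against 4.18% of 33469 rat promoters of the same length. The 250 bases before the start are printed for Nfkbia, Nfkbiz and Tnfaip3, which rose most in both Yap1 groups. They are also printed for Nfkb2, which rose with Yap1 WT and fell slightly with the shRNA. That fall depended on the processing, as given below. Capitals mark matches to the consensus, and each sequence reads 5′ to 3′ on the gene's strand. Positions and strands printed with the sequences are those of GRCr8. Nfkbia is on the minus strand there and on the plus strand in the rat build rn6, which is used for the gene positions given below.
Nfkbia, chr6:78597073-78597322, minus strand: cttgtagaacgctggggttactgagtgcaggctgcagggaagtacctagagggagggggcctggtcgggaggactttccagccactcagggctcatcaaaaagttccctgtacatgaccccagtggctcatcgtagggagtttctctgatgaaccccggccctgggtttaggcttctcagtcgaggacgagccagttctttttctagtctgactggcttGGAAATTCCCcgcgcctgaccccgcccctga
Nfkbiz, chr11:58251471-58251720, plus strand: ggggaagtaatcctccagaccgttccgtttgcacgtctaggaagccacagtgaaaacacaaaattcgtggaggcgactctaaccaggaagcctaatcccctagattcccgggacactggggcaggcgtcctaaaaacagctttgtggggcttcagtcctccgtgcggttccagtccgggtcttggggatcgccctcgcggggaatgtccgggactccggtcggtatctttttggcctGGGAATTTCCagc
Tnfaip3, chr1:15543980-15544229, minus strand: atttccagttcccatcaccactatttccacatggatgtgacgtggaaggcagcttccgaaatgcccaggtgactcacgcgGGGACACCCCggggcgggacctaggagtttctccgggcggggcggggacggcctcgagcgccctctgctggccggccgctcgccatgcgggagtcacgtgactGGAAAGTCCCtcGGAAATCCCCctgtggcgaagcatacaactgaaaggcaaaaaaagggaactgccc
Nfkb2, chr1:255108124-255108373, plus strand: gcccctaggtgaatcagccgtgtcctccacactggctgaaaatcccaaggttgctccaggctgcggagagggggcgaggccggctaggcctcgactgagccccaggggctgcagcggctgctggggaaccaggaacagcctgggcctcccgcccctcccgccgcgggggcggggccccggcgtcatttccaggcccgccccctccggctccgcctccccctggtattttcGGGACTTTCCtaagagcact
The match lay 31 to 22 bases before the start in Nfkbia, 13 to 4 before it in Nfkbiz and 20 to 11 before it in Nfkb2. Tnfaip3 had 3 matches, the nearest at 55 to 46 bases before the start. Nfkbie had 1 match 164 to 155 bases before its start, and Nfkb1 had 1 that lay 4 to 13 bases after its start. For comparison, GGAATG, the core bound by the TEAD partners of Yap1, searched on both strands, was in 1 of the 7 (Nfkbiz, 50 to 45 bases before the start) and in 14.2% of all promoters. These are letter matches and not measured binding.

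The vectors moved Yap1 itself as labelled. Levels below are reads of a gene per 1000000 assigned reads after TMM scaling (CPM), per library or as the mean of 3 libraries ± SD. Yap1 (chromosome 8, 6109474 to 6204240, minus strand, rn6) stood at 195 ± 4.37 CPM with GFP, 664 ± 132 with Yap1 WT and 95.6 ± 0.37 with the shRNA. Depth ran from 6103221 to 15368473 assigned reads per library, most in the GFP group and fewest in the shRNA group. Single libraries held 23 to 1391 reads of a member, the fewest for Birc3. Fold changes come from edgeR's quasi-likelihood test over all 9 libraries, with Benjamini-Hochberg adjustment over 13697 genes. They are called at an adjusted p under 0.05 and are given on the log2 scale with the standard error (SE). The labels do not say whether the 3 libraries of a group are separate isolations, so the p-values measure only the spread between these samples, which may be technical.

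With added Yap1, all 10 genes were higher than with GFP, in 10 of 10 cases without overlap between the libraries of the groups. Over all genes, 63.9% were called in this comparison (32.1% higher and 31.8% lower), and the groups did not overlap for 70.7% (35.4% higher). At least 2-fold higher were 3 of the 10 (Nfkbia, Nfkbiz and Tnfaip3), against 9.19% of all genes called at that size. The median log2 fold change of the 10 was 0.86, against 0.00 over all genes tested. With the Yap1 shRNA, 5 of the 10 rose (Rela, Nfkbia, Nfkbiz, Tnfaip3 and Ikbke), Nfkb2 fell 1.18-fold and 4 did not pass the test. Here 78.3% of all genes were called (39.2% higher and 39.1% lower), so the count of 6 in 10 is no result about these genes as a set. The groups did not overlap for 6 of the 10, against 80.2% of all genes (39.9% higher), and the same 3 genes were at least 2-fold higher, against 19.2%. The median of the 10 was 0.46, against -0.01 over all genes. Both comparisons use the same 3 GFP libraries.

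**Figure D1:**
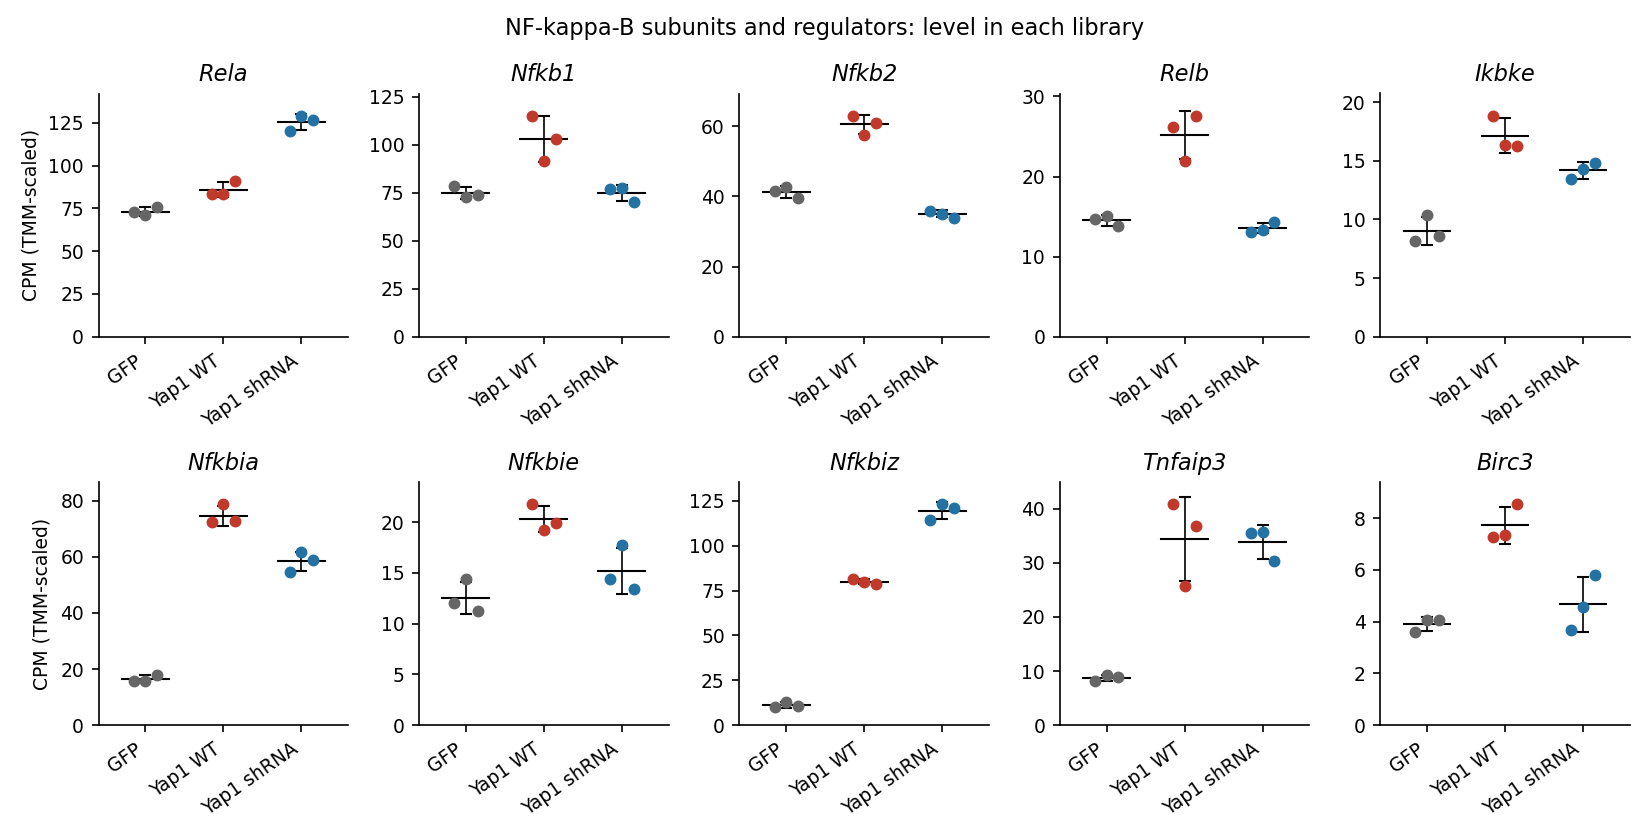
Level of each of the 10 genes in CPM (linear axis from 0) in the 3 libraries of the GFP, Yap1 WT and Yap1 shRNA groups. Points are libraries, long horizontal lines are group means and vertical bars are ± SD. Rela, Nfkbia, Nfkbiz, Tnfaip3 and Ikbke are higher in both Yap1 groups than with GFP. Nfkb1, Nfkb2, Relb, Nfkbia, Nfkbie, Ikbke and Birc3 have their highest mean with Yap1 WT, and Rela and Nfkbiz with the shRNA. Tnfaip3 is about equal in the Yap1 groups.

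Among the subunits, the canonical RelA transcript rose in both Yap1 groups, and more with the shRNA. Rela (chromosome 1, 220992770 to 221003249, plus strand, rn6 here and for every position that follows) stood at 72.9, 70.8 and 75.7 CPM in the GFP libraries. It stood at 83.7, 83.4 and 90.9 with Yap1 WT and at 120.1, 129 and 126 with the shRNA. The 3 groups form 3 separate levels, with the shRNA libraries highest. The log2 fold change against GFP was 0.23 with Yap1 WT (SE 0.06, adjusted p = 0.00271) and 0.78 with the shRNA (SE 0.06, adjusted p = 3.89e-08). Nfkb1 (chromosome 2, 240773520 to 240890053, plus strand), which encodes the p105 precursor of p50, behaved otherwise. Its levels were 78.5, 72.7 and 73.6 CPM with GFP, 115, 91.3 and 103 with Yap1 WT and 77.0, 77.3 and 70.1 with the shRNA. Only the Yap1 WT libraries stood apart. Nfkb1 rose 1.38-fold with Yap1 WT (log2 0.46, SE 0.08, adjusted p = 0.000178), and with the shRNA its log2 fold change was -0.003 (95% interval -0.18 to 0.18, adjusted p = 0.975).

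The noncanonical pair was highest in the Yap1 WT libraries, as was Nfkb1. Nfkb2 (chromosome 1, 266048833 to 266059661, plus strand), which encodes the p100 precursor of p52, gave 41.6, 42.8 and 39.5 CPM with GFP, 63.1, 57.6 and 61.0 with Yap1 WT and 35.9, 35.1 and 33.98 with the shRNA. All shRNA libraries lay below all GFP libraries, and all Yap1 WT libraries above them. The rise with Yap1 WT was 1.47-fold (log2 0.55, SE 0.06, adjusted p = 4.14e-06). The fall with the shRNA was 1.18-fold (log2 -0.24, SE 0.07, adjusted p = 0.00576), and it was lost in limma-trend on log2(TPM + 1), where it was -0.01 (adjusted p = 0.873). In the authors' deposited table the same fall had log2 -0.24 with a q-value of 0.0596. Relb (chromosome 1, 80517081 to 80545019, minus strand), the noncanonical partner, gave 14.6, 15.1 and 13.8 CPM with GFP, 26.2, 21.9 and 27.6 with Yap1 WT and 13.1, 13.3 and 14.3 with the shRNA. Its GFP and shRNA libraries overlap. Relb rose 1.74-fold with Yap1 WT (log2 0.80, SE 0.10, adjusted p = 9.61e-06), and with the shRNA its log2 fold change was -0.09 (95% interval -0.34 to 0.15, adjusted p = 0.452).

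The inhibitors moved unequally. Nfkbia (chromosome 6, 76267227 to 76270457, plus strand), which encodes IkappaB-alpha, the inhibitor that is rapidly remade after NF-kappa-B activation, stood at 15.8, 15.9 and 18.0 CPM with GFP. It stood at 72.3, 78.8 and 72.9 with Yap1 WT and at 54.8, 61.6 and 58.8 with the shRNA. Every library of either Yap1 group lay far above the GFP libraries. Nfkbia rose 4.51-fold with Yap1 WT (log2 2.17, SE 0.07, adjusted p = 1.29e-10) and 3.52-fold with the shRNA (log2 1.82, SE 0.08, adjusted p = 2.63e-10). Nfkbie (chromosome 9, 17828405 to 17835240, minus strand), which encodes the related inhibitor IkappaB-epsilon, changed less. It gave 12.0, 14.3 and 11.3 CPM with GFP, 21.8, 19.2 and 19.9 with Yap1 WT and 14.4, 17.7 and 13.4 with the shRNA, where the GFP and shRNA libraries overlap. The rise with Yap1 WT was 1.62-fold (log2 0.69, SE 0.12, adjusted p = 0.000166). With the shRNA the log2 fold change was 0.27 (95% interval -0.01 to 0.55, adjusted p = 0.0725). That value passed without GFP replicate 2 (0.38, adjusted p = 0.0228), without shRNA replicate 3 (0.35, adjusted p = 0.0389) and with limma-trend on log2(TPM + 1) (0.45, adjusted p = 0.00349).

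Nfkbiz (chromosome 11, 47243342 to 47271487, plus strand) had the largest rise of the 10 in both comparisons. It encodes IkappaB-zeta, a nuclear member of the inhibitor family that can also act as a coactivator of selected NF-kappa-B targets. Its levels were 10.1, 12.9 and 10.4 CPM with GFP, 81.4, 79.6 and 78.8 with Yap1 WT and 114, 123 and 121 with the shRNA. The shRNA libraries were above the Yap1 WT libraries, opposite in order to Nfkbia. Nfkbiz rose 7.19-fold with Yap1 WT (log2 2.85, SE 0.08, adjusted p = 3.52e-11) and 10.7-fold with the shRNA (log2 3.43, SE 0.08, adjusted p = 6.36e-12). Of all genes tested, 97.8% and 97.3% had a lower log2 fold change than Nfkbiz in the comparisons of Yap1 WT and the shRNA with GFP.

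Tnfaip3 (chromosome 1, 14401103 to 14416369, minus strand) encodes A20, a ubiquitin-editing enzyme that shuts off signalling from the tumour necrosis factor and Toll-like receptors. Its levels were 8.12, 9.2 and 8.97 CPM with GFP, 40.9, 25.8 and 36.8 with Yap1 WT and 35.6, 35.8 and 30.3 with the shRNA. The Yap1 groups overlap each other and not the GFP group. The fold changes were 3.93 with Yap1 WT (log2 1.98, SE 0.15, adjusted p = 1.6e-07) and 3.86 with the shRNA (log2 1.95, SE 0.16, adjusted p = 1.14e-07). Within the Yap1 WT group, replicate 2 had the least Tnfaip3, Nfkb1, Nfkb2, Relb, Nfkbie and Rela, the most Nfkbia, and the most Yap1 (812 CPM, against 559 and 622). Its Rela level was close to that of replicate 1 (83.4 and 83.7 CPM). For Nfkbiz, Ikbke and Birc3 it lay between the other replicates.

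The remaining regulators act upstream in the pathway. Ikbke (chromosome 13, 48031325 to 48056394, minus strand), an IkappaB kinase-related enzyme that also signals to interferon factors, gave 8.19, 10.4 and 8.56 CPM with GFP, 18.9, 16.3 and 16.2 with Yap1 WT and 13.4, 14.3 and 14.8 with the shRNA. No Ikbke value of either Yap1 group reached down to the GFP libraries. It rose 1.89-fold with Yap1 WT (log2 0.92, SE 0.11, adjusted p = 1.17e-05) and 1.57-fold with the shRNA (log2 0.65, SE 0.12, adjusted p = 0.00035). Birc3 (chromosome 8, 6048590 to 6076828, minus strand) encodes cIAP2, a ubiquitin ligase of the tumour necrosis factor receptor complex. Its levels were 3.61, 4.06 and 4.08 CPM with GFP, 7.28, 7.35 and 8.55 with Yap1 WT and 3.67, 4.56 and 5.80 with the shRNA, where the shRNA and GFP libraries overlap. Birc3 rose 1.97-fold with Yap1 WT (log2 0.98, SE 0.16, adjusted p = 0.000168). With the shRNA its log2 fold change was 0.26 (95% interval -0.16 to 0.67, adjusted p = 0.232). With limma-trend on log2(TPM + 1) it was called (0.33, adjusted p = 0.0412), and it was 0.40 without shRNA replicate 1 (adjusted p = 0.0786) and 0.07 without shRNA replicate 3 (adjusted p = 0.799).

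**Figure D2:**
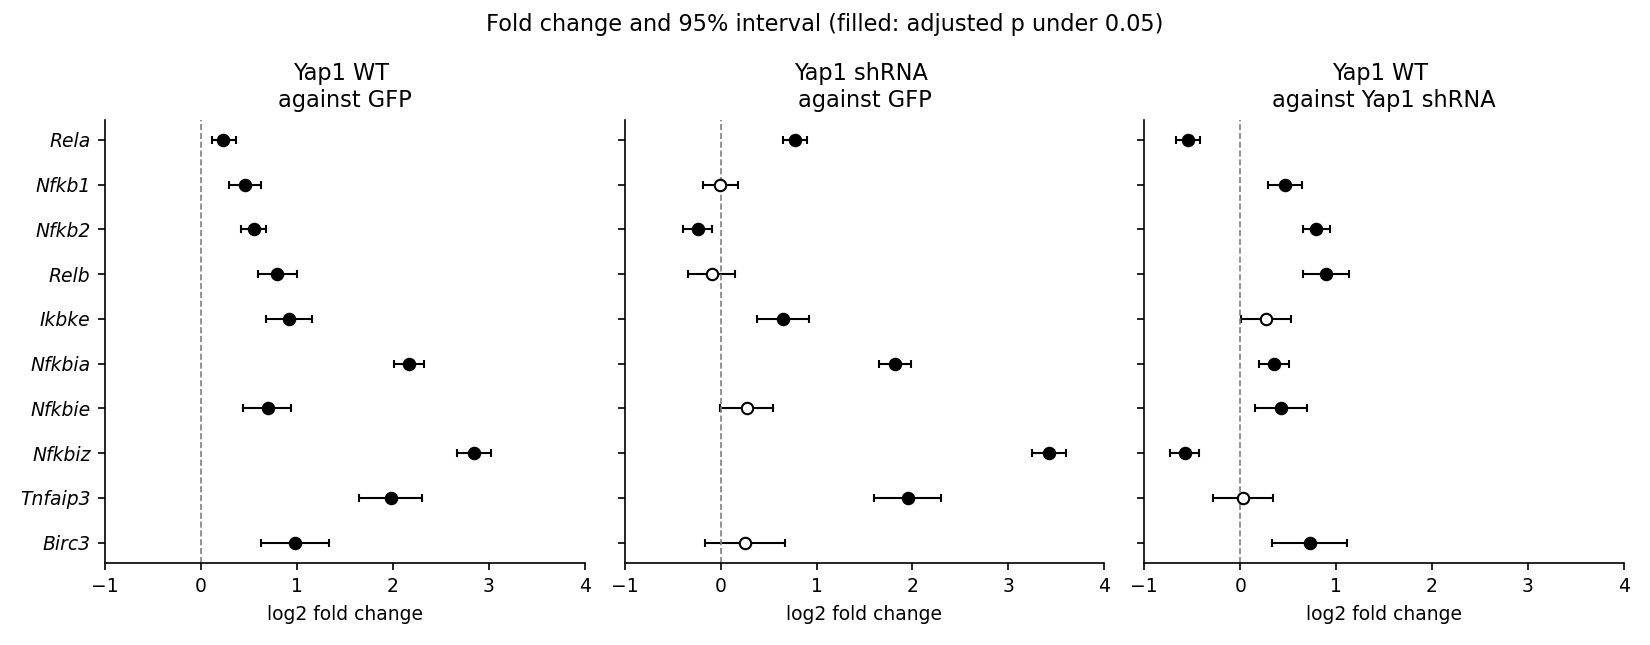
Log2 fold change (horizontal axis) of the 10 genes in the 3 comparisons, from edgeR over all 9 libraries. Bars are 95% intervals, filled points have an adjusted p under 0.05 and open points do not. All 10 points are filled and right of 0 for Yap1 WT against GFP, and 6 are filled for Yap1 shRNA against GFP.

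Set directly against each other, the Yap1 groups differed in 8 of the 10 genes, against 62.5% of all genes tested (31.2% higher and 31.3% lower with Yap1 WT). The libraries did not overlap for 9 of the 10, against 66.1% of all genes, and 0 of the 10 were at least 2-fold higher, against 6.4%. The 6 higher with Yap1 WT were Relb (log2 0.89, SE 0.11, adjusted p = 1.19e-05), Nfkb2 (0.79, SE 0.07, adjusted p = 4.37e-07), Birc3 (0.72), Nfkb1 (0.46), Nfkbie (0.42) and Nfkbia (0.36). The 2 lower were Nfkbiz (-0.58, SE 0.07, adjusted p = 1.04e-05) and Rela (-0.54, SE 0.06, adjusted p = 3.32e-06). Birc3, Nfkb1, Nfkbie and Nfkbia had adjusted p = 0.00359, 0.000294, 0.0104 and 0.000727. Ikbke did not pass (log2 0.27, 95% interval 0.01 to 0.53, adjusted p = 0.062), although its libraries did not overlap. For Tnfaip3 the difference was 0.03 (95% interval -0.28 to 0.34, adjusted p = 0.882). The Nfkbie call was lost without shRNA replicate 3 (0.34, adjusted p = 0.0506), and its q-value in the authors' deposited table was 0.0538. Ikbke was called with library size alone (0.39, adjusted p = 0.0109), with upper quartile scaling (0.41, adjusted p = 0.00843), without the count filter (0.31, adjusted p = 0.047) and without GFP replicate 2 (0.27, adjusted p = 0.047).

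The fold changes rest on a scaling between libraries, and that choice mattered most for the genes near 0. Relative to the main scaling, where the median gene stood at 0.003 (Yap1 WT) and -0.012 (shRNA) against GFP, log2(TPM + 1) put it at 0.136 and 0.156, and library size alone put it at 0.138 and 0.009. Upper quartile scaling put it at 0.001 and -0.151. Calls over all genes with Yap1 WT were 4391 higher and 4360 lower with the main scaling, 5636 and 3344 with library size alone, and 5418 and 2894 on TPM. Between the Yap1 groups they were 4277 and 4287, and 5559 and 3467 with upper quartile scaling. The directions of the 10 genes against GFP with Yap1 WT held under every scaling run (RLE, upper quartile, library size alone and TPM). With the shRNA, the log2 fold change of Nfkb1 turned to 0.02 with RLE and with library size alone and to 0.21 on TPM, and that of Relb turned to 0.11 on TPM.

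Ratios of 2 genes within a library do not depend on that scaling. They were taken on the deposited TPM, which is per transcript length and so lets genes be compared. In GFP libraries Rela was the most abundant member (40.6 ± 1.70 TPM), followed by Nfkb1 (24.6 ± 1.5), then Nfkb2 (17.1 ± 0.79) and Nfkbia (15.4 ± 1.1), whose libraries overlap. Below them came Nfkbie (11.3 ± 1.32), Relb (9.06 ± 0.44), Nfkbiz (4.91 ± 0.60), Ikbke (3.67 ± 0.43), Tnfaip3 (2.51 ± 0.11) and Birc3 (1.89 ± 0.15), each without overlap with its neighbour. The order was different with Yap1 WT. There Nfkbia came first at 77.7 ± 3.96 TPM, ahead of Rela (53.4 ± 2.05), Nfkbiz (39.6 ± 1.1) and Nfkb1 (37.8 ± 4.57), of which Nfkbiz and Nfkb1 overlap. Then came Nfkb2 (28.0 ± 1.20), Nfkbie (20.5 ± 1.47), Relb (17.6 ± 1.95), Tnfaip3 (11 ± 2.49) and Ikbke (7.78 ± 0.76), the last 2 overlapping, and Birc3 (4.26 ± 0.46). With the shRNA, Rela came first at 80.4 ± 0.30 TPM, ahead of Nfkbia (62.7 ± 1.54) and Nfkbiz (61.3 ± 0.12), which overlap. Nfkb1 (28.5 ± 2.11), Nfkb2 (16.9 ± 1.07), Nfkbie (15.8 ± 2.11), Tnfaip3 (11.3 ± 1.22), Relb (9.83 ± 0.42), Ikbke (6.65 ± 0.16) and Birc3 (2.67 ± 0.64) followed. In that part of the order Nfkb2 overlaps Nfkbie and Tnfaip3 overlaps Relb.

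The share of Rela among the subunit transcripts was lower with Yap1 WT and higher with the shRNA than with GFP. Rel, which encodes the remaining subunit c-Rel and is no member, was included here, and the 5 subunits summed to 93.4 ± 3.48 TPM with GFP, 141 ± 7.50 with Yap1 WT and 146 ± 3.45 with the shRNA. Of that sum, Rela made up 42.4%, 42.6% and 45.2% in the GFP libraries, 35.6%, 39.1% and 38.9% with Yap1 WT and 54.1%, 55.2% and 56.4% with the shRNA. The 3 groups did not overlap, with the Rela share lowest with Yap1 WT and highest with the shRNA. Nfkb2 made up 18.2%, 19.3% and 17.5% with GFP, 19.9%, 20.4% and 19.2% with Yap1 WT, and 12.2%, 11.4% and 11.3% with the shRNA. Relb made up 9.62%, 10.2% and 9.24% with GFP, 12.5%, 11.6% and 13.3% with Yap1 WT, and 6.58%, 6.45% and 7.23% with the shRNA. Thus both noncanonical transcripts were a smaller part of the sum in every shRNA library than in any other. So was the canonical Nfkb1, at 18.6% to 20.5% against 25.3% to 29.0%. The TPM of the noncanonical pair changed little, from 17.1 with GFP to 16.9 with the shRNA for Nfkb2 and from 9.06 to 9.83 for Relb. The smaller shares thus go with the larger sum, in which Rela rose from 40.6 to 80.4 TPM. Unlike shares, TPM levels and sums set between groups do depend on the scaling between libraries. On log2(TPM + 1) the median gene stood at 0.156 with the shRNA against GFP. With the main scaling the log2 fold changes in that comparison were -0.24 for Nfkb2, -0.09 for Relb and 0.78 for Rela. Nfkb1 made up 26.3% ± 0.61 with GFP, 26.8% ± 1.97 with Yap1 WT and 19.6% ± 0.95 with the shRNA. Rel made up 2.29% ± 0.46, 3.00% ± 0.49 and 6.86% ± 0.48 in the same order, and for Nfkb1, Nfkb2 and Rel the Yap1 WT and GFP libraries overlap.

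The ratio of Nfkb2 to Rela was 0.423 ± 0.0323 with GFP, 0.525 ± 0.0327 with Yap1 WT and 0.211 ± 0.0129 with the shRNA. That of Relb to Rela was 0.224 ± 0.0177, 0.330 ± 0.0291 and 0.122 ± 0.0055 in the same order. For Nfkb1 to Rela it was 0.607 ± 0.0305, 0.71 ± 0.091 and 0.355 ± 0.0255. Nfkbia stood at 0.379 ± 0.0181 of the Rela level with GFP, 1.46 ± 0.115 with Yap1 WT and 0.780 ± 0.0175 with the shRNA, so the inhibitor's transcript exceeded that of Rela only with Yap1 WT. Nfkbiz stood at 0.122 ± 0.0202, 0.744 ± 0.0459 and 0.762 ± 0.0023 of the Rela level, and its ratio to Nfkbia was 0.322 ± 0.0565, 0.511 ± 0.0281 and 0.978 ± 0.0218. For each of these ratios but 1, the 3 groups did not overlap, and the two-sided exact permutation p of each pair of groups was 0.1, the smallest that 3 against 3 libraries allow. Over the 45 tests of shares and ratios the Benjamini-Hochberg value of these was 0.115, so none could pass 0.05. The exception was Nfkbiz to Rela between the Yap1 groups (exact permutation p = 0.9). The ratio of Nfkbia to its relative Nfkbie was 1.38 ± 0.251 with GFP, 3.80 ± 0.401 with Yap1 WT and 4.01 ± 0.480 with the shRNA, and the Yap1 groups overlap there.

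**Figure D3:**
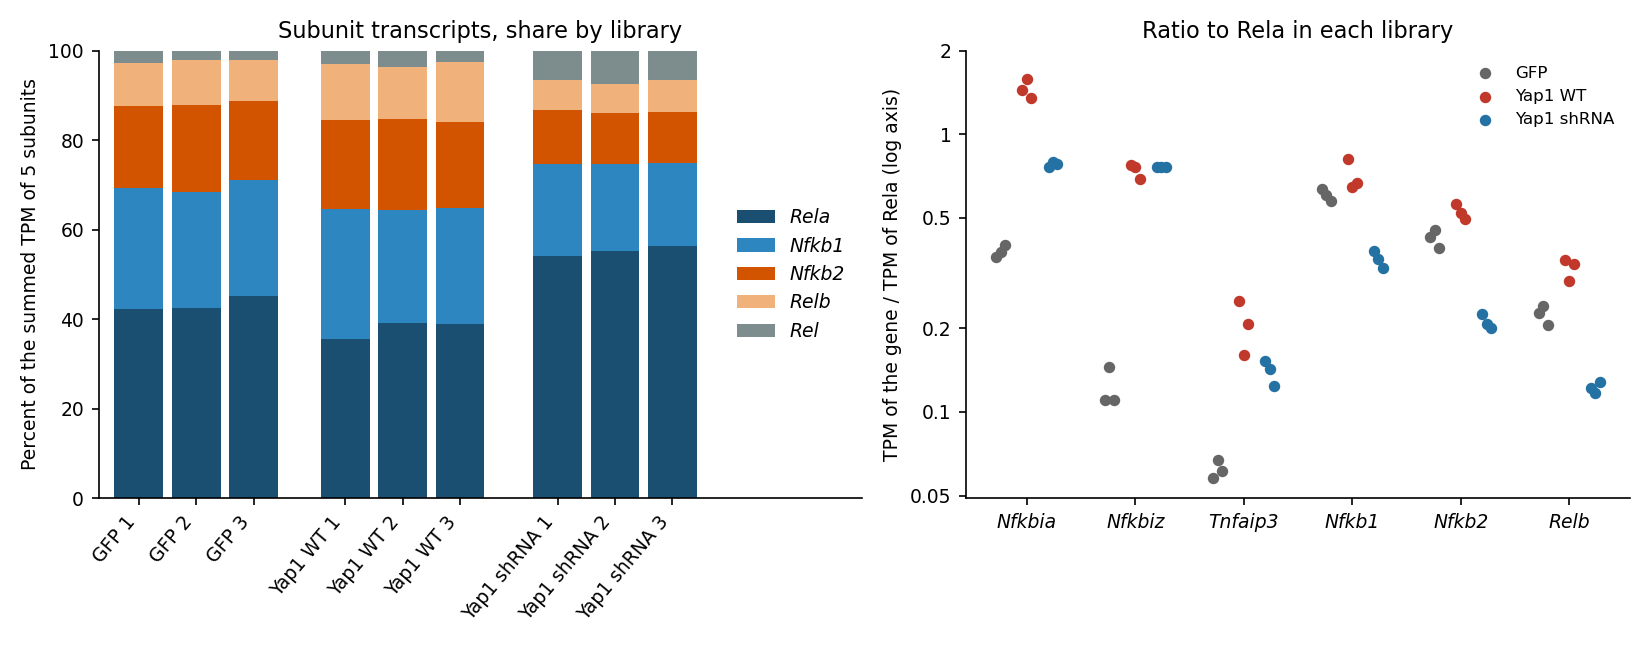
Left, share of each subunit transcript in the summed TPM of 5 subunits (percent, stacked to 100) in each library. Right, ratio of 6 transcripts to Rela in each library (log axis). The Rela share is 54.1% to 56.4% in the shRNA libraries and 35.6% to 39.1% in the Yap1 WT libraries. The Nfkb1, Nfkb2 and Relb ratios are lowest with the shRNA.

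The rest of the pathway was described with 5 lists, whose counts stand against shares of all genes tested of 32.1% higher and 31.8% lower with Yap1 WT, 39.2% and 39.1% with the shRNA, and 31.2% and 31.3% between the Yap1 groups. With so many genes called, 26 of 30 receptors and adaptors called in either direction with the shRNA is near the background of 78.3%. Between the Yap1 groups the counts by direction were uneven in some lists and are given below. With Yap1 WT, 11 of 13 other subunits, inhibitors and IkappaB kinases rose and 1 fell (median log2 0.58). With the shRNA, 12 rose and 1 fell (median 0.86). Map3k14, the kinase NIK at the head of the noncanonical branch, rose 2.48-fold with Yap1 WT (adjusted p = 2.07e-07) and 4.93-fold with the shRNA (adjusted p = 3.46e-10). It was thus higher with the shRNA than with Yap1 WT (1.98-fold, adjusted p = 1.46e-06), the reverse of Nfkb2 and Relb. Chuk, the kinase IKK-alpha, rose 1.33-fold and 2.43-fold, Map3k7 (TAK1) 1.27-fold and 1.91-fold, and Ikbkb (IKK-beta) 1.5-fold and 1.49-fold in the same order. Bcl3, a nuclear IkappaB that binds p50 and p52, rose 3.14-fold with Yap1 WT (adjusted p = 3.59e-07) and 1.38-fold with the shRNA (adjusted p = 0.0191).

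Receptors, adaptors and ubiquitin ligases numbered 30, of which 22 rose and 4 fell with Yap1 WT (median 0.41). With the shRNA 18 rose and 8 fell (median 0.49). The receptor Tlr2 rose 19.1-fold with Yap1 WT (adjusted p = 1.05e-12) and 9.08-fold with the shRNA (adjusted p = 1.36e-11). The kinase Ripk2 rose 5.00-fold and 5.71-fold, and Irak3, an inhibitor of Toll-like receptor signalling, rose 3.40-fold and 2.51-fold. Other negative regulators numbered 11, of which 8 rose and 2 fell with Yap1 WT (median 0.41). With the shRNA 9 rose and 2 fell (median 0.54). Zc3h12a, an RNase that degrades cytokine transcripts, rose 5.85-fold and 5.24-fold, N4bp1 rose 2.09-fold and 2.84-fold, and Tnip3, an A20-binding protein, rose from 10 reads in all GFP libraries together to 270 and 182 (31.9-fold and 41.4-fold).

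The medians of known target genes were larger than that of the 10 members. Outside the chemokines 34 targets were tested, of which 28 rose and 1 fell with Yap1 WT (median 2.17). With the shRNA 29 rose and 1 fell (median 1.76). The complement component C3 rose 69.3-fold and 17.3-fold, the pentraxin Ptx3 4.48-fold and 5.18-fold, the cytokine Lif 4.52-fold and 5.44-fold and the peptide transporter Tap1 6.71-fold and 3.88-fold. The chemokine targets rose in 13 of 13 cases with Yap1 WT (median 6.09) and in 12 with the shRNA (median 4.64). Cxcl1 rose 141-fold and 93.5-fold, Ccl7 68.1-fold and 54.4-fold, and Ccl2 26.9-fold and 24.5-fold. Several targets, Tap1 among them, are also induced by interferon. In the direct comparison, Yap1 WT was above the shRNA for 18 targets and below it for 7, against 31.2% and 31.3% of all genes. The same counts were 8 and 0 of the chemokines, 2 and 5 of the negative regulators, 13 and 8 of the receptors and adaptors, and 1 and 8 of the subunits, inhibitors and kinases.

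**Figure D4:**
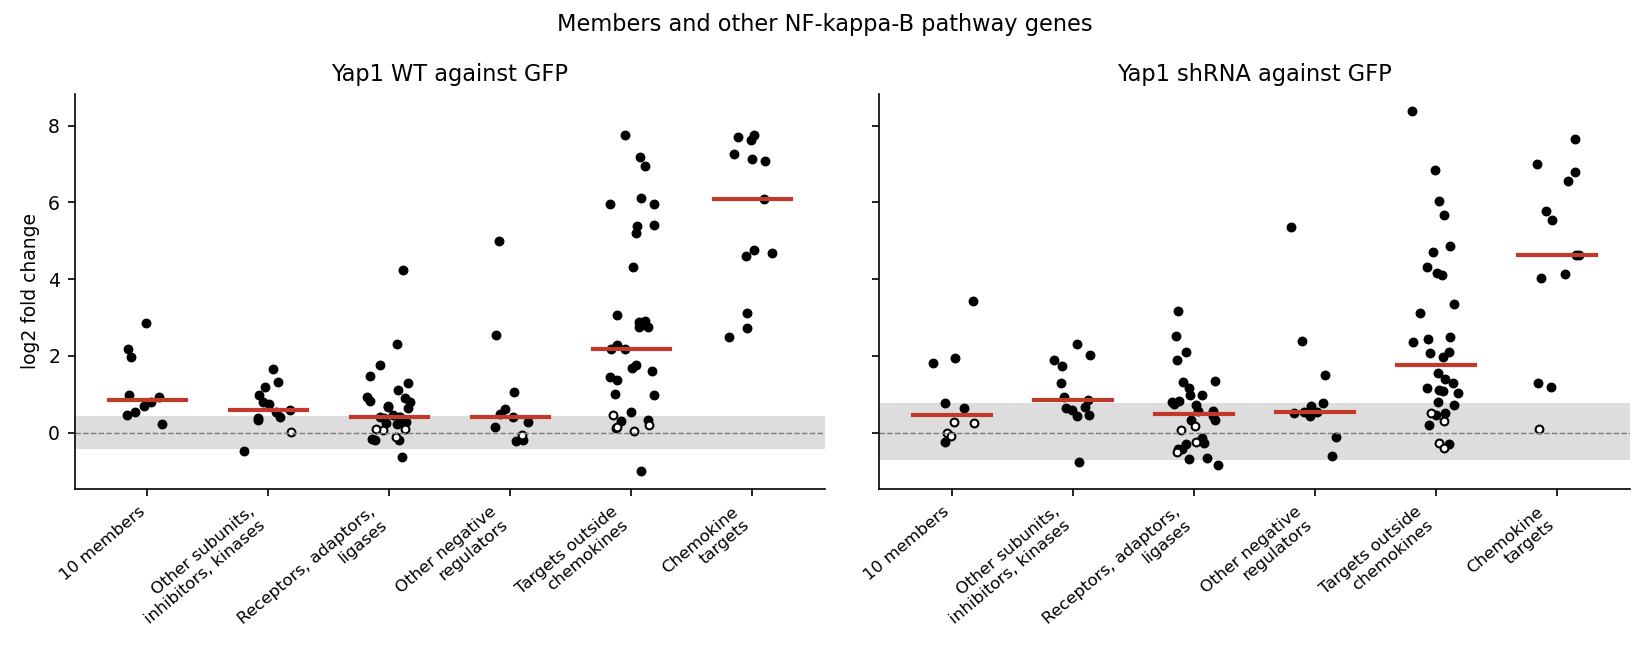
Log2 fold change against GFP (vertical axis) of the 10 members and of 5 lists of other NF-kappa-B pathway genes, with Yap1 WT on the left and the Yap1 shRNA on the right. Filled points have an adjusted p under 0.05, red lines are list medians and the grey band holds the middle 50% of all genes tested. The target and chemokine medians (2.17 and 6.09 with Yap1 WT) lie above that of the members (0.86).

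Other genes had the same course over the 9 libraries. Among the 10430 genes that averaged 5 CPM or more, those with the highest Pearson correlation of log2 CPM with Nfkbia were Ubash3b (r = 0.998), Adamts8 (0.996), Dtx3l (0.996), Osmr (0.996) and Cxcl16 (0.996). Osmr, the oncostatin M receptor, stood at 35.2 ± 2.26 CPM with GFP, 162 ± 11 with Yap1 WT and 122 ± 5.48 with the shRNA. For Nfkb2 they were Dapk1 (0.994), Adamts1 (0.991), Tnip1 (0.990), Shisa5 (0.988) and Enpp4 (0.987). Tnip1, which encodes an A20-binding inhibitor of NF-kappa-B, stood at 87.3 ± 1.82, 122 ± 3.40 and 80.1 ± 2.09 CPM in the same order. The points share 3 groups of libraries and their depths, and r reached 0.95 for 283 genes with Nfkbia and 55 with Nfkb2.

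Birc3 lies beside Yap1 in the genome. Both are on the minus strand, with 32645 bases between the 3′ end of Yap1 and the 5′ end of Birc3, and the paralog Birc2 (cIAP1) lies on the other side of Birc3. Birc2 stood at 22.5, 39.96 and 37.4 CPM with GFP, Yap1 WT and the shRNA. It rose with Yap1 WT (log2 0.83, SE 0.08, adjusted p = 1.39e-06) and in the shRNA group (log2 0.73, SE 0.09, adjusted p = 4.1e-06). Across Yap1 from Birc3, Cfap300 did not pass (log2 0.16 and 0.06, adjusted p = 0.364 and 0.762), nor did Cep126 (0.25 and 0.14, adjusted p = 0.431 and 0.685). Tmem123, beyond Birc2, fell in both groups (log2 -0.44 and -0.78, adjusted p = 0.000356 and 2.25e-06). Birc2 and Birc3 share sequence, and whether reads of either were assigned to the other was not tested. All 90 deposited values of the 10 members were whole numbers within 0.005, as were 89.8% of all expected counts.

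Markers of cell types moved beside these genes, and in bulk RNA fewer cells of a type cannot be told apart from less RNA per cell. All 10 cardiomyocyte markers were detected, and each of the 10 fell in both Yap1 groups (median log2 -2.08 for Yap1 WT and -4.17 for the shRNA). Their summed level was 19686 to 20384 TPM with GFP, 7527 to 10065 with Yap1 WT and 2006 to 2447 with the shRNA. Fibroblast markers numbered 10, of which 4 rose and 5 fell with Yap1 WT, against 1 and 8 with the shRNA (medians -0.23 and -1.13). Their sums were 5443 to 6056, 4929 to 6229 and 3095 to 3655 TPM. Of 8 smooth muscle and pericyte markers, 7 fell with Yap1 WT and 8 with the shRNA. Endothelial markers rose in 4 and fell in 1 of 8 cases with Yap1 WT, and rose in 7 and fell in 1 with the shRNA. The 9 listed summed to 18.7 to 19.9 TPM with GFP, 26.4 to 28.2 with Yap1 WT and 38.3 to 41.4 with the shRNA. Epicardial markers rose in 2 and fell in 5 of 8, and rose in 3 and fell in 4. The counts of every marker list, the leukocytes below included, stand against the shares of all genes tested. Those were 32.1% higher and 31.8% lower with Yap1 WT, and 39.2% and 39.1% with the shRNA.

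Leukocytes carry high levels of these pathway genes. Macrophage and other leukocyte markers tested numbered 10, of which 3 rose and 1 fell with Yap1 WT (median 0.03). With the shRNA 2 rose and 5 fell (median -0.49). The summed level of the 12 listed in the table was 134 to 151 TPM with GFP, 174 to 183 with Yap1 WT and 58.5 to 85.7 with the shRNA. Much of that sum was Lyz2 (73.4 to 90.2 TPM with GFP, 92.7 to 101.5 with Yap1 WT and 22.9 to 33.5 with the shRNA) and Fcer1g (28.4 to 34.95, 37.5 to 42.4 and 12.63 to 21.98). The macrophage gene Csf1r was 1.52 to 2.2, 1.77 to 2.26 and 1.91 to 2.54 TPM, and Itgam was 0.82 to 1.03, 1.88 to 2.15 and 1.24 to 2.27. Itgam rose in both Yap1 groups (log2 0.98 and 0.64, adjusted p = 0.00149 and 0.0289). Adgre1, the macrophage marker F4/80, stood at 0.94 to 1.17 TPM with GFP, 5.26 to 5.87 with Yap1 WT and 1.89 to 2.85 with the shRNA, and rose in both Yap1 groups (log2 2.24 and 1.02, adjusted p = 1.08e-07 and 0.000358). C1qa went the other way, at 2.19 to 2.56 TPM with GFP, 0.62 to 0.78 with Yap1 WT and 0 to 0.95 with the shRNA. Its reads numbered 0 to 22 per library. C1qb was near the floor throughout, with 5, 1 and 2 reads in the GFP libraries, 6, 1 and 1 with Yap1 WT and 0 in each of the shallower shRNA libraries. Ptprc, the pan-leukocyte gene, was between 0.21 and 1.03 TPM in all 9 libraries. The part of these shifts in cell markers in the results for the 10 genes was not tested.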

How the data were processed

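Per the labels' protocols, oligo(dT)-enriched messenger RNA was sequenced on a BGISEQ-500. The submitters' processing notes name HISAT2, Bowtie2, RSEM 1.3.1, DESeq2 1.4.5 and the rat build rn6, without a role for each, and strandedness is not given in the sources used here. Gene-level expected counts were deposited for each library, of which 89.8% are whole within 0.005. TPM, which the authors scaled to a fixed sum per library, is in the same table. That table also holds, per the file headers, the authors' log2 fold changes and q-values (adjusted p-values) from DESeq2, second-named group over first. A further table with the same value columns was not used.

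Rounded expected counts of all 9 libraries went into 1 edgeR 4.0.16 model in R 4.3.3, which had a term for group and no other, after filterByExpr (minimum count 10) and TMM. The biological coefficient of variation was 7.18%. Tests were glmQLFTest, two-sided, with Benjamini-Hochberg adjustment over 13697 genes, called at 0.05. The SE is the log2 fold change divided by the square root of F, and intervals are 95%.

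The members and lists were chosen with earlier results of these data known, so no count over them is independent evidence. All 10 members are named, and of each of 5 pathway lists the 3 called genes with the lowest p in each comparison with GFP. Likeness is the 5 highest Pearson r of log2 CPM (prior count 2) with Nfkbia and with Nfkb2. There were 6 marker lists. Rnf11, Sele, Rgs5, Emcn, C1qb and Cd3e were listed but not tested, and 1 listed marker is not reported here.

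The fit was repeated with 3 other scalings (RLE, upper quartile, library size), with DESeq2 1.42.0, and with limma 3.58.1 as voom and as trend on log2(TPM + 1). It was also repeated without a count filter or with one of 5 CPM in 3 libraries, on just the 6 libraries compared, with a replicate block, at equal depth by thinning, and with each library left out. On simulated counts for 13697 genes with 200 changed per Yap1 group, 68.7% of genes changed 1.5-fold, 85.1% of those changed 2-fold and 95.5% of those changed 4-fold were called in Yap1 WT against GFP. In the shRNA comparison these were 65.7%, 88.1% and 95.5%. Far more genes were called in the data, so rates there may differ.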

Additional observations from a re-analysis of the deposited data

How the results depend on the processing

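The numbers of genes and members called and the log2 fold changes of the 10 members were recomputed under 20 alternatives. Of these, 9 leave out 1 library. Shares, ratios, orders of level, lists, correlations and the genes beside Birc3 were not recomputed. All 10 genes were called higher with Yap1 WT than with GFP under each of the 20 alternatives. With the shRNA against GFP the number called was 6 and ranged from 6 to 7 as each library was left out. Between the Yap1 groups it was 8 and ranged from 7 to 9. Of 330 log2 fold changes under alternatives that keep every library, 317 kept direction and call, as did 261 of 270 with a library left out. The log2 fold change of Nfkb1 with the shRNA against GFP, -0.003, turned to 0.02 with RLE, library size alone or DESeq2, 0.01 with the stricter count filter and 0.21 on log2(TPM + 1), and ranged from -0.03 to 0.04 as each library was left out. That of Relb turned to 0.11 on log2(TPM + 1). For Tnfaip3 between the Yap1 groups it turned to -0.05 on log2(TPM + 1) and ranged from -0.11 to 0.20 with 1 library left out. None of these values passed the test, and the cause was not tested.

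With the replicate number as a block, 8812, 10749 and 8590 genes were called in the 3 comparisons, against 8751, 10729 and 8564 without it, and the block changed no call among the 10 members. Deviations from the group means correlated above 0.1 in 4 of 9 same-numbered pairs of libraries and in 0 of 18 differently numbered pairs (highest 0.062, lowest -0.156). The deviations of a group sum to 0, so the pairs are not independent and a positive value forces negative ones elsewhere. A library's best match in another group had its own number in 12 of 18 cases. This is a hint from the data that some same-numbered libraries are related, but not every pair was, and the labels state no pairing. At 23 to 36 reads per shRNA library, Birc3 had the widest interval of the 10 in that comparison (-0.16 to 0.67), which holds both no change and a 1.5-fold rise.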
